A study of Mus musculus with 6 samples.

Results

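The genes described here encode the factors that start and extend protein synthesis: 63 protein-coding genes whose symbols begin with *Eif* or *Eef*, of 54532 genes in the table. They were taken by symbol and biotype alone, without the 4 eIF2α kinase genes, *Eif2s1* and *Eef1e1*, from 69 such genes in all, and they include the genes of the 4E-binding proteins. The RNA came from primary macrophages of *Metrnl* knockout mice (KO, labelled METRNL-/-) and of wild-type mice (WT, labelled METRNL+/+), 3 libraries each. Both groups had met the fungus *Candida albicans* in culture for 6 h, so no library here shows cells without the fungus. No source used here gives the strain, age or sex of the mice, the tissue the macrophages were taken from, or whether the libraries of a group came from separate animals. The p-values therefore reflect the scatter of these libraries, which may be technical. *Metrnl* encodes meteorin-like, a secreted protein.

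Translation starts when eIF4E binds the cap of an mRNA and, with the scaffold eIF4G and the helicase eIF4A, recruits a small ribosomal subunit. That subunit carries eIF3, eIF1, eIF1A and a ternary complex of eIF2, GTP and the initiator tRNA. The 4E-binding proteins hold eIF4E away from eIF4G until the kinase complex mTORC1 phosphorylates them, and eIF2B recharges eIF2 with GTP after each round. In elongation, eEF1A brings aminoacyl-tRNAs, the eEF1B subunits recharge it, and eEF2 moves the ribosome along the mRNA. In macrophages, control of these steps shapes which cytokine mRNAs are translated after a microbe is met.

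The libraries held 11026529 to 15724897 reads in genes. Levels are FPKM, fragments scaled by the authors for gene length and by a factor for each library. That factor did not follow the reads in genes. For *Eif2s3y*, 3 reads would be 0.0564 FPKM in KO replicate 1 (14772746 reads in genes) and 0.0450 FPKM in WT replicate 1 (14309247 reads). The FPKM of all genes summed to 412048 in KO replicate 1 and 311409 in WT replicate 1, against 334570 to 365689 in the other libraries. Of the 63 genes, 58 had a mean of at least 0.5 FPKM over the 6 libraries and were tested among 11689 genes with limma on log2(FPKM + 1). A gene was called when its Benjamini-Hochberg adjusted p over all tested genes was below 0.05. Folds are ratios of mean FPKM. Log2 fold changes are differences of mean log2(FPKM + 1), KO minus WT, and are too small for genes of low level. *Metrnl* RNA itself had 51.2, 63.6 and 62.8 FPKM in KO libraries, against 93.5, 63.2 and 69.8 FPKM in WT libraries, and was not called (log2 fold change -0.33, limma adjusted p = 0.181). The deleted part of the gene is not given in the sources used here, so this level does not check the genotype labels. Replicate 1 of each genotype stood apart from replicates 2 and 3 of that genotype. The chi-square per degree of freedom of reads between 2 libraries was 39.6 to 59.4 for pairs with a replicate 1, against 2.30 for KO replicates 2 and 3 and 7.10 for WT replicates 2 and 3.

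The 2 sets of cells also differed in markers of other cells. The summed level of 8 macrophage markers was 8457 to 9134 FPKM in KO and 4718 to 5513 FPKM in WT libraries, with 3 of 8 called higher and 1 lower. That of 10 B cell markers was 29.6 to 38.0 FPKM in KO and 558 to 720 FPKM in WT libraries, with 10 of 10 called lower. T and NK cell markers summed to 3.41 to 4.59 FPKM in KO and 12.3 to 14.6 FPKM in WT libraries (5 of 5 tested called lower), dendritic cell markers to 16.8 to 22.6 FPKM in KO and 54.4 to 82.2 FPKM in WT libraries (4 of 6 lower). Neutrophil markers summed to 663 to 745 FPKM in KO and 895 to 1199 FPKM in WT libraries (2 of 5 tested lower), fibroblast and mesothelial markers to 6.14 to 7.85 FPKM in KO and 13.7 to 16.2 FPKM in WT libraries (3 of 5 tested lower). The extraction text in the labels speaks of retinas, and 4 retina markers summed to 0.846 to 1.30 FPKM in KO and 0.614 to 0.751 FPKM in WT libraries. Of 10 genes listed for RNA quality 0 were called higher and 2 lower (*Rpl3* and *B2m*). The part of these cells in the results below was not tested, and in bulk RNA fewer cells of a type and less RNA per cell cannot be told apart.

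As a group the translation factor genes differed little between the genotypes. Of the 58 tested genes, 9 rose in KO (15.5%), where 15.7% of all tested genes did, and 4 fell (6.90%), where 12.4% of all tested genes did. Their median log2 fold change was 0.04, against 0.03 over all tested genes, and the median of its absolute value was 0.17, against 0.23 over all tested genes. Of all tested genes 8368 averaged under 10 FPKM, while 35 of the 58 translation factor genes averaged 10 FPKM or more. Of the 20 genes at 10 to 50 FPKM 3 rose, with a median of 0.02, where 28.8% of all tested genes at that level rose, with a median of 0.15. Of the 15 at 50 FPKM or more 3 rose, with a median of 0.04, where 30.1% of all tested genes at that level rose, with a median of 0.18. By mean FPKM, 51 of the 58 genes lay within 1.5-fold of WT, 38 within 1.2-fold, and 3 differed 2-fold or more. The 3 KO libraries lay above the 3 WT libraries for 16 genes, where 25.7% of all tested genes did so, and below them for 12, where 19.9% did so. The groups overlapped for the other 30. Of the 47 tested *Eif* genes 8 rose and 2 fell, and of the 11 tested *Eef* genes 1 rose and 2 fell. With TPM in place of the deposited scaling 3 rose and 4 fell, where 31.8% of all calls were higher in KO, against 55.9% with the deposited scaling. Without both replicate 1 libraries 11 rose and 7 fell, where 2252 of all tested genes rose and 1908 fell.

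**Figure D1:**
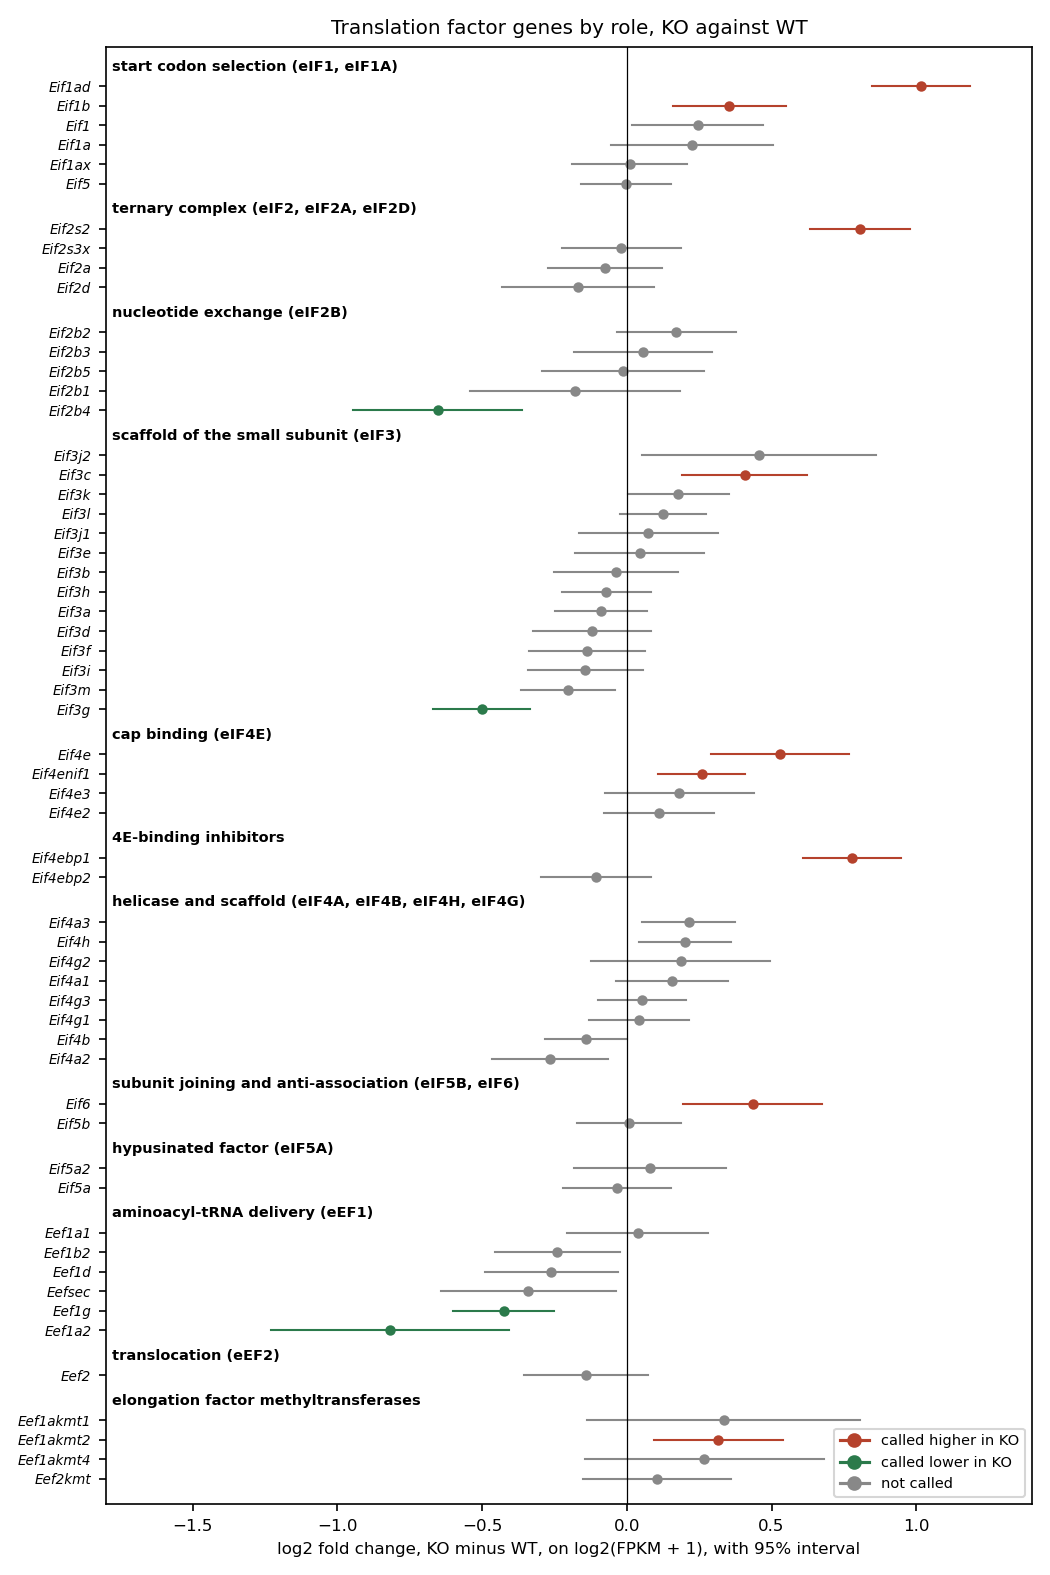
Log2 fold change (difference of mean log2(FPKM + 1), KO minus WT) of the 58 tested translation factor genes grouped by role, with 95% intervals from limma and called genes in colour. Points scatter around 0 between -0.82 (*Eef1a2*) and 1.02 (*Eif1ad*).

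The summed level of the 63 genes was 4960, 4591 and 4655 FPKM in KO libraries, against 4549, 4479 and 4687 FPKM in WT libraries, and the groups overlapped. As a share of reads in genes the same sum was 1.36, 1.45 and 1.47% in KO libraries, against 1.598, 1.51 and 1.48% in WT libraries. On this scale the KO libraries all lay below the WT libraries, narrowly so for KO replicate 3 and WT replicate 3. The FPKM are divided by gene length and carry the authors' library scaling, and the shares of reads are not and do not. *Eef1a1* alone gave 32.0 to 33.7% of the reads of the group. Replicates were closer for these genes than for genes in general: the median coefficient of variation was 6.78% in KO and 6.57% in WT libraries, against 11.6% in KO and 12.2% in WT libraries over all tested genes. The spread was not compared with that of genes of like level. By FPKM, KO replicate 1 held the highest KO value for 34 of the 58 genes. Its FPKM over all genes also summed highest of the KO libraries (412048, against 335015 and 334570). By share of reads in genes it was the lowest KO library for this group.

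By ratio of summed FPKM, the 4E-binding inhibitors (94.2 ± 1.51 FPKM in KO and 58.7 ± 3.44 FPKM in WT; SD, n = 3 each) and the cap-binding genes (53.1 ± 2.35 FPKM in KO and 39.7 ± 2.14 FPKM in WT) were the role groups that differed most. *Eif4ebp1* (chromosome 8, 27260329 to 27276674, plus strand, GRCm38), which encodes the 4E-binding protein 4E-BP1, had 85.5, 85.5 and 88.5 FPKM in KO libraries, against 53.0, 46.8 and 50.4 FPKM in WT libraries. Every KO library lay well above every WT library. The means were 86.5 ± 1.73 FPKM in KO and 50.1 ± 3.13 FPKM in WT (SD, n = 3 each), a 1.73-fold rise with a log2 fold change of 0.78 ± 0.07 (SE; 95% interval 0.61 to 0.95; limma adjusted p = 9.72e-04).

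*Eif4ebp2*, the gene of a second 4E-binding protein, had 7.15, 7.89 and 7.19 FPKM in KO libraries, against 8.78, 7.86 and 7.54 FPKM in WT libraries. The groups overlapped and it was not called (log2 fold change -0.11, limma adjusted p = 0.364). *Eif4ebp3*, the gene of the remaining family member, had 0.105, 0.681 and 0.0897 FPKM in KO libraries, against 0.503, 0.799 and 0.430 FPKM in WT libraries. It rested on 10 reads over the KO libraries and 17 over the WT libraries and was not tested. The ratio of *Eif4ebp1* to *Eif4ebp2* was 11.96, 10.8 and 12.3 in KO libraries, against 6.04, 5.96 and 6.69 in WT libraries, with no overlap. Its size rests on the gene lengths behind the FPKM, 2196 bases for *Eif4ebp1* and 5784 bases for *Eif4ebp2*.

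*Eif4e*, which encodes the cap-binding protein that the 4E-binding proteins hold, also rose, to 31.3, 37.2 and 36.5 FPKM in KO libraries, against 26.3, 22.1 and 23.4 FPKM in WT libraries. The groups did not overlap, and KO replicate 1 and WT replicate 1 were the nearest libraries. The rise was 1.46-fold (log2 fold change of 0.53 ± 0.10, SE; limma adjusted p = 0.0115). The ratio of *Eif4ebp1* to *Eif4e* was 2.73, 2.30 and 2.43 in KO libraries and 2.02, 2.12 and 2.15 in WT libraries. It was thus higher in every KO library than in any WT library, while its size rests on the gene lengths behind the FPKM. The *Eif4e* call was lost with TPM scaling (limma adjusted p = 0.141), with quantile normalization (0.0560) and without KO replicate 3 (0.0502).

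The related cap-binding genes did not pass the test: *Eif4e2* had a log2 fold change of 0.11 (limma adjusted p = 0.344) and *Eif4e3* one of 0.18 (0.257). *Eif4enif1*, whose product 4E-T carries eIF4E into the nucleus and into P-bodies, had 6.57, 6.16 and 6.15 FPKM in KO libraries, against 5.02, 5.01 and 5.24 FPKM in WT libraries. Its rise was small, 0.26 ± 0.06 on the log2 scale (SE; limma adjusted p = 0.0263), and the groups did not overlap. Leaving out any 1 library took it past the threshold, with adjusted p up to 0.0787. *Eif4e1b*, a form known from oocytes, had 0 reads in all 6 libraries, where 3 reads would be 0.0830 to 0.113 FPKM.

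**Figure D2:**
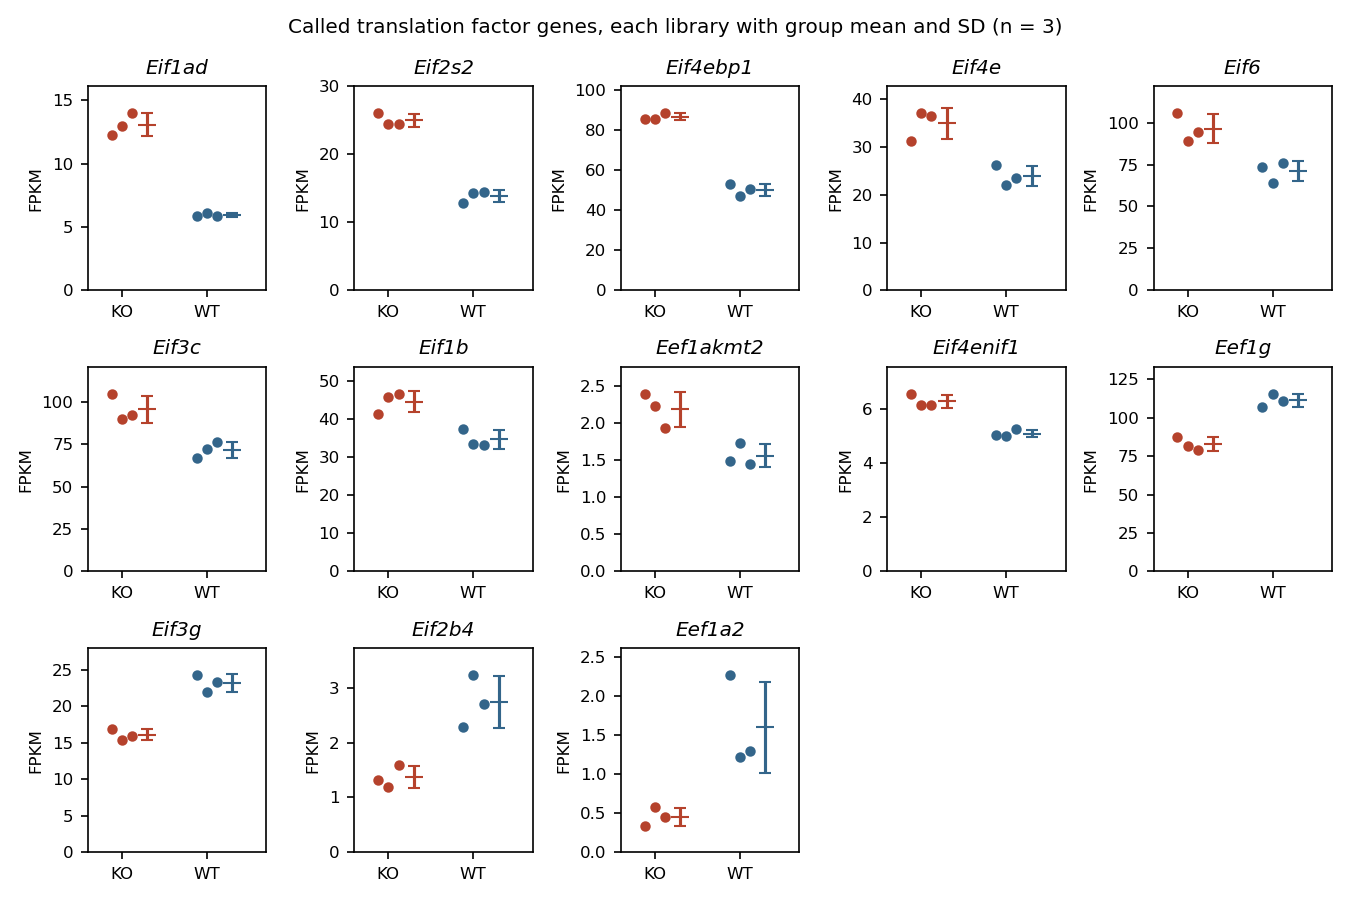
FPKM of the 13 called genes in each library, KO left of WT, with the group mean and SD (n = 3 each). In every panel the 3 KO points lie on 1 side of the 3 WT points, above them in 9 panels and below them in 4.

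Unlike *Eif4e*, the genes of the eIF4A, eIF4B, eIF4H and eIF4G factors held no called gene under the main settings. The 8 genes of the helicases, their cofactors and the scaffolds had a median log2 fold change of 0.10, with 0 called by limma and 3 at an unadjusted p below 0.05, where 4772 of the 11689 tested genes had one. Of these 8, *Eif4a2* was called lower with voom on recovered reads and with quantile normalization, *Eif4b* lower with quantile normalization, and *Eif4h* higher without both replicate 1 libraries. *Eif4a1*, the main helicase gene, had 291, 266 and 275 FPKM in KO libraries, against 258, 233 and 255 FPKM in WT libraries. Its paralogue *Eif4a2* had 21.4, 22.6 and 22.2 FPKM in KO libraries, against 26.4, 29.6 and 24.5 FPKM in WT libraries. Neither pair of groups overlapped and neither passed the test (limma adjusted p = 0.200 for *Eif4a1* and 0.0578 for *Eif4a2*), while their ratio was 13.6, 11.7 and 12.4 in KO libraries and 9.78, 7.89 and 10.4 in WT libraries.

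The scaffold genes *Eif4g1* and *Eif4g3* had log2 fold changes of 0.04 (limma adjusted p = 0.709) and 0.05 (0.581), and their ratio overlapped between the groups. Reads of *Eif4a1* are uncertain, since 65.3% of the 50-base words of its transcript also occur in transcripts of other genes. Most of those lie in the pseudogene *Eif4a-ps4*, which had 183, 172 and 176 FPKM in KO libraries, against 182, 149 and 173 FPKM in WT libraries.

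**Figure D3:**
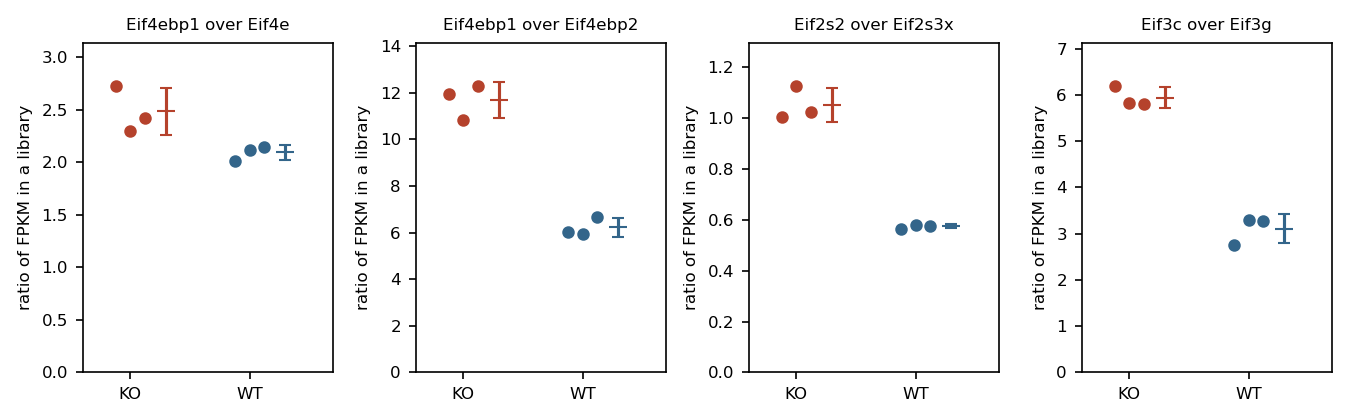
Ratio of the FPKM of 2 genes within each library, KO left of WT, with the group mean and SD (n = 3 each). In the 4 panels all 3 KO libraries lie above all 3 WT libraries, by least for *Eif4ebp1* over *Eif4e*.

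Among the genes of the ternary complex, *Eif2s2* stood alone. It encodes the β subunit of eIF2 (chromosome 2, 154871410 to 154892935, minus strand, GRCm38) and had 26.1, 24.4 and 24.5 FPKM in KO libraries, against 12.8, 14.3 and 14.5 FPKM in WT libraries. The groups were far apart, with means of 25.0 ± 0.966 FPKM in KO and 13.9 ± 0.904 FPKM in WT (SD, n = 3 each). The rise was 1.80-fold (log2 fold change of 0.81 ± 0.07, SE; limma adjusted p = 9.30e-04).

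*Eif2s3x*, the gene of the γ subunit, had a log2 fold change of -0.02 (limma adjusted p = 0.891), and the α subunit gene *Eif2s1*, left out of the group by its definition, had 17.1, 15.0 and 15.5 FPKM in KO libraries, against 17.5, 17.7 and 16.4 FPKM in WT libraries (0.282). The ratio of *Eif2s2* to *Eif2s3x* was 1.01, 1.13 and 1.02 in KO libraries, against 0.565, 0.581 and 0.578 in WT libraries. The ratio was thus higher in every KO library than in any WT library. Its size rests on the gene lengths behind the FPKM, 6755 bases for *Eif2s2* and 3812 bases for *Eif2s3x*. It does not show which of the 2 RNAs had more copies. Of the 50-base words of *Eif2s2*, 27.8% also occur in the transcript of 1 other gene, the pseudogene *Gm9892*. It had 26.8, 22.9 and 24.1 FPKM in KO libraries, against 12.3, 14.9 and 13.4 FPKM in WT libraries (limma adjusted p = 0.00226). How reads of both were assigned is not given in the sources used here, so rises of the gene and of its pseudogene cannot be told apart.

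*Eif2s3y*, the Y-linked copy of the γ subunit gene, had 0 reads in all 6 libraries, where 3 reads would be 0.0450 to 0.0612 FPKM. The Y-linked *Ddx3y*, *Kdm5d* and *Uty* were also at 0 in every library, and *Xist*, the RNA of the silenced X chromosome, had 66.1, 67.1 and 66.5 FPKM in KO libraries, against 54.0, 66.2 and 57.9 FPKM in WT libraries. The γ subunit therefore rested on *Eif2s3x* alone in both genotypes.

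Of the 5 genes of eIF2B, the exchange factor of eIF2, only *Eif2b4* was called under the main settings. It encodes the δ subunit and had 1.32, 1.19 and 1.59 FPKM in KO libraries, against 2.28, 3.24 and 2.71 FPKM in WT libraries. The groups did not overlap, and the fall was 2-fold (log2 fold change of -0.65 ± 0.12, SE; limma adjusted p = 0.0112), on 155 reads over the KO libraries and 282 over the WT libraries. The log2 fold changes of the others were 0.17 for *Eif2b2* (limma adjusted p = 0.185), -0.01 for *Eif2b5* (0.942), -0.18 for *Eif2b1* (0.423) and 0.06 for *Eif2b3* (0.713). The summed level of the 5 genes was 28.3 ± 0.696 FPKM in KO and 28.5 ± 2.59 FPKM in WT (SD, n = 3 each).

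The largest rise of all was that of *Eif1ad* (chromosome 19, 5366813 to 5371511, plus strand, GRCm38), which encodes a nuclear protein with an eIF1A-like domain. It had 12.3, 13.0 and 14.0 FPKM in KO libraries, against 5.91, 6.09 and 5.86 FPKM in WT libraries. The groups were far apart, and the WT libraries lay within a narrow band. The rise was 2.20-fold (log2 fold change of 1.02 ± 0.07, SE; 95% interval 0.85 to 1.19; limma adjusted p = 3.57e-04), on 1412 reads over the KO libraries and 592 over the WT libraries. Its transcript shares no 50-base word with another gene, but 15.3% of its exon bases in GENCODE M21, whose model of this gene is longer than the deposited one, lie opposite exons of *Banf1*, whose log2 fold change was 0.27 (limma adjusted p = 0.104).

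Among the start codon factors proper, *Eif1* had 402, 349 and 346 FPKM in KO libraries, against 321, 291 and 312 FPKM in WT libraries. The groups did not overlap, yet it was not called (log2 fold change 0.24, limma adjusted p = 0.102). Its paralogue *Eif1b* had 41.3, 45.7 and 46.7 FPKM in KO libraries, against 37.4, 33.4 and 33.1 FPKM in WT libraries, and rose 1.29-fold (log2 fold change of 0.35 ± 0.08, SE; limma adjusted p = 0.0222). *Eif1a*, *Eif1ax* and *Eif5*, which encode eIF1A and the GTPase-activating factor of eIF2, were not called. The *Eif1b* call was lost with TPM scaling (limma adjusted p = 0.319), with quantile normalization (0.244) and in 4 of the 6 fits without 1 library, those without KO replicate 2, KO replicate 3, WT replicate 2 or WT replicate 3 (up to 0.0874).

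The genes of the 14 subunits and copies of eIF3 had a median log2 fold change of -0.05, and their sum was 494 ± 23.0 FPKM in KO and 492 ± 7.04 FPKM in WT (SD, n = 3 each). Within that near-equal sum 1 gene rose and 1 fell. *Eif3c*, which encodes a subunit of the core octamer, had 105.0, 90.0 and 92.2 FPKM in KO libraries, against 66.9, 72.5 and 76.2 FPKM in WT libraries (1.33-fold; log2 fold change of 0.41 ± 0.09, SE; limma adjusted p = 0.0195). *Eif3g*, which encodes an RNA-binding subunit that attaches to the complex outside that core, had 16.9, 15.5 and 15.9 FPKM in KO libraries, against 24.4, 21.96 and 23.3 FPKM in WT libraries (1.44-fold lower; log2 fold change of -0.50 ± 0.07, SE; limma adjusted p = 0.00424).

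Neither pair of groups overlapped, and the ratio of *Eif3c* to *Eif3g* was 6.20, 5.82 and 5.80 in KO libraries, against 2.75, 3.30 and 3.27 in WT libraries. The other 12 genes of eIF3 were not called, with *Eif3h* at -0.07 (limma adjusted p = 0.457) on the log2 scale. Quantile normalization called *Eif3f*, *Eif3h* (0.0418) and *Eif3m* lower. Without both replicate 1 libraries *Eif3k* and *Eif3j2* were called higher and *Eif3d* and *Eif3f* lower, and *Eif3j2* was also called higher without WT replicate 1. *Eif3j1* and *Eif3j2* share sequence, with 91.8% of the 50-base words of *Eif3j2* and 39.8% of those of *Eif3j1* found in other genes, so their split is uncertain. The *Eif3c* call was lost with TPM scaling (limma adjusted p = 0.0521), without KO replicate 3 (0.0586) and without WT replicate 2 (0.0527), whereas that of *Eif3g* was kept in all alternatives run.

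*Eif6* encodes the factor that keeps the large ribosomal subunit from joining too early and that is needed to build it. It had 105.9, 89.1 and 94.4 FPKM in KO libraries, against 73.5, 64.2 and 75.6 FPKM in WT libraries. The groups did not overlap, and the rise was 1.36-fold (log2 fold change of 0.43 ± 0.10, SE; limma adjusted p = 0.0218). *Eif5b*, whose product joins the subunits, had 11.3, 11.4 and 11.4 FPKM in KO libraries, against 12.3, 11.3 and 10.3 FPKM in WT libraries, with no call (0.949). The *Eif6* call was lost with TPM scaling (limma adjusted p = 0.0812), without KO replicate 3 (0.0700) and without WT replicate 2 (0.0562).

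On the elongation side, the group of aminoacyl-tRNA delivery held the eEF1 genes and *Eefsec*, which is not one of them. Of these 6 genes 2 fell and 0 rose, where 12.4% of all tested genes fell. The KO libraries lay below the WT libraries for 5 of the 6, where 19.9% of all tested genes did so. *Eefsec* was among the 5 (log2 fold change -0.34, limma adjusted p = 0.0913), and this direction was not tested for the group. One of the 2 that fell, *Eef1a2*, is a gene of low level. *Eef1a1*, the most abundant of the 63 RNAs, was the exception, with 2019, 1940 and 1918 FPKM in KO libraries, against 1869, 1872 and 1987 FPKM in WT libraries (log2 fold change 0.04, limma adjusted p = 0.819). The sign of that small difference turned with TPM scaling, and 59.2% of its 50-base words occur in other genes, the pseudogene *Gm13456* first among them.

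*Eef1g*, the gene of the γ subunit of eEF1B (chromosome 19, 8967041 to 8978479, GRCm38), had 87.6, 81.4 and 78.8 FPKM in KO libraries, against 107.1, 115.6 and 111.0 FPKM in WT libraries. The groups were well apart, and the fall was 1.35-fold (log2 fold change of -0.43 ± 0.07, SE; limma adjusted p = 0.00840). Its partners showed smaller differences of the same sign that did not pass under the main settings. *Eef1b2* had 67.1, 57.9 and 57.8 FPKM in KO libraries, against 68.0, 70.9 and 77.3 FPKM in WT libraries (-0.24, limma adjusted p = 0.0944). *Eef1d* had a log2 fold change of -0.26 (0.0881). *Eef1b2* was called lower with quantile normalization, without KO replicate 1 and without both replicate 1 libraries. Of the 50-base words of *Eef1g*, 64.3% also occur in other genes, and among these *Gm4366* had 7.11, 5.81 and 5.17 FPKM in KO libraries, against 6.37, 8.16 and 7.68 FPKM in WT libraries.

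*Eef1a2*, the copy of eEF1A known from muscle and neurons, had 0.338, 0.578 and 0.448 FPKM in KO libraries, against 2.27, 1.22 and 1.30 FPKM in WT libraries. The fall was 3.52-fold (log2 fold change of -0.82 ± 0.17, SE; limma adjusted p = 0.0163), on 42 reads over the KO libraries and 140 over the WT libraries. It passed the filter on low values through the WT libraries, since its KO mean was 0.454 ± 0.120 FPKM, and WT replicate 1 was far above the other WT libraries. Without KO replicate 3 the call was lost (limma adjusted p = 0.0560).

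*Eef2*, the translocase gene, had 585, 511 and 549 FPKM in KO libraries, against 603, 590 and 618 FPKM in WT libraries. The groups did not overlap, and it was not called (log2 fold change -0.14, limma adjusted p = 0.288). *Eef2k*, the gene of the kinase that inhibits eEF2, was under the filter, at 0.154 to 0.252 FPKM in KO and 0.177 to 0.248 FPKM in WT libraries. *Eif5a*, whose product needs the modified residue hypusine and helps stalled ribosomes on, had a log2 fold change of -0.03 (limma adjusted p = 0.788), and its low paralogue *Eif5a2* one of 0.08 (0.622).

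Of the enzymes that methylate elongation factors, 1 of 4 tested was called under the main settings. Another, *Eef1akmt4*, was called higher without WT replicate 1 and without both replicate 1 libraries. *Eef1akmt2*, which methylates a lysine of eEF1A, had 2.39, 2.23 and 1.93 FPKM in KO libraries, against 1.48, 1.73 and 1.45 FPKM in WT libraries (log2 fold change of 0.32 ± 0.09, SE; limma adjusted p = 0.0474). The groups did not overlap, and leaving out any 1 library took the adjusted p past the threshold (up to 0.135). *Eef1akmt1*, the most abundant of these enzymes, had a log2 fold change of 0.33 (limma adjusted p = 0.252), and *Eef1akmt3* was under the filter.

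Promoters were examined for the binding words of 2 kinds of factor that are known to drive translation genes. RefSeq windows of GRCm38.p6, running from 250 bases before to 50 after each annotated start, were at hand for 47 of the 63 genes and for 27025 genes in all. CACGTG, the E-box that MYC and related factors bind, occurred in 13 of the 47 (27.7%), against 2187 of the 27025 (8.09%). It was in 2 of 7 genes that rose (28.6%), 10 of 35 that were not called (28.6%) and 0 of 3 that fell, so genes that rose and genes that were not called held it in equal shares. TGATGNAAN, the core of the element that ATF4 binds, occurred in 2 of the 47 (4.26%), against 1215 of the 27025 (4.50%), and in 0 of the 7 that rose and had a window. Neither word could be sought for *Eif4ebp1* and *Eif6*, which rose, or *Eef1g*, which fell, since these had no window. Both strands were searched, and the words do not overlap each other.

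The stretches of 30 bases around the E-box are shown for both genes that rose and hold it, and for 4 abundant genes that were not called, to let their flanks be compared. They are read 5′ to 3′ on the strand of the gene, with CACGTG in capitals, from chr3:138527028-138527057 and chr3:138527192-138527221 for *Eif4e* (plus strand), chr9:120492570-120492599 for *Eif1b* (plus), chr11:69672595-69672624 for *Eif4a1* (minus), chr16:20672661-20672690 and chr16:20672730-20672759 for *Eif4g1* (plus), chr10:81176576-81176605 for *Eef2* (plus) and chr11:69921443-69921472 and chr11:69920791-69920820 for *Eif5a* (minus).
Eif4e, distal: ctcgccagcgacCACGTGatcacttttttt
Eif4e, proximal: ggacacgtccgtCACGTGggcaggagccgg
Eif1b: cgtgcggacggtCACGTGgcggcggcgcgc
Eif4a1: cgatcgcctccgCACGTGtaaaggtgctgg
Eif4g1, before the start: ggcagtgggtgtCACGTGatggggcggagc
Eif4g1, after the start: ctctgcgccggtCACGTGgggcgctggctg
Eef2: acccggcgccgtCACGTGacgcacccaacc
Eif5a, upstream start: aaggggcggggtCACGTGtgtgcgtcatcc
Eif5a, downstream start: gcgctgcgcggcCACGTGaggtgggggagg
In 6 of the 9 stretches the E-box followed GT, in genes that rose and in genes that were not called alike. The proximal word of *Eif4e* began 64 bases and the distal one 228 bases before a RefSeq start, that of *Eif1b* 24 and that of *Eef2* 43 bases before their own. Both words of *Eif4e* lie in the window of a second RefSeq start, inside the deposited gene, and its other window (chr3:138525941-138526240), at the deposited start of the gene, held none. Those of *Eif5a* belong to different starts, 74 and 178 bases before them. A match of letters is not evidence that a factor binds there.

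Genes that act on or beside these factors were examined in 8 lists. In the list of mTORC1 signalling, the pathway that phosphorylates the 4E-binding proteins, 7 of 19 tested genes rose and 1 fell (42.1%, against 28.0% of all tested genes), with a median log2 fold change of 0.12. With TPM scaling 3 rose and 1 fell, without any 1 library 5 rose, and without KO replicate 1 2 fell. *Rheb*, the GTPase that switches mTORC1 on, had 23.0, 23.9 and 23.5 FPKM in KO libraries, against 11.8, 11.2 and 11.1 FPKM in WT libraries (2.06-fold; limma adjusted p = 2.18e-04). *Pdcd4*, whose product blocks eIF4A and is degraded after mTORC1 signalling, had 1.16, 1.07 and 1.38 FPKM in KO libraries, against 4.81, 6.28 and 5.94 FPKM in WT libraries (4.71-fold lower; limma adjusted p = 3.78e-04).

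The genes of the list that rose act on mTORC1 in both directions. *Sesn2*, whose product inhibits mTORC1 when leucine is short, had 69.0, 62.1 and 63.1 FPKM in KO libraries, against 11.8, 11.4 and 11.7 FPKM in WT libraries. *Tsc1* and *Akt1s1*, which encode a subunit of the complex that switches Rheb off and a subunit that restrains mTORC1, rose as well (limma adjusted p = 0.0499 and 0.0308), but both calls were lost without any 1 library (up to 0.166 for *Tsc1* and 0.0915 for *Akt1s1*) and with TPM scaling. *Rraga*, *Rragc* and *Lamtor1*, of the machinery that brings mTORC1 to the lysosome, rose 1.33-fold, 1.46-fold and 1.61-fold (0.00745, 0.00223 and 0.00673). With TPM scaling the calls of *Rraga* (limma adjusted p = 0.169) and *Lamtor1* (0.0621) were lost.

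In the list of the integrated stress response, which slows eIF2B through phosphorylated eIF2 and induces ATF4, 6 of 13 genes rose and 1 fell (53.8%, against 28.0% of all tested genes), with a median log2 fold change of 0.44. Of these 13, 2 fell with TPM scaling, 2 without KO replicate 1 and 3 without WT replicate 1. *Atf4*, of which *Eif4ebp1* is a known target gene, had 314, 275 and 278 FPKM in KO libraries, against 168, 178 and 190 FPKM in WT libraries (1.62-fold; limma adjusted p = 0.00347). *Eif2ak3*, the gene of the eIF2α kinase PERK, was the one that fell (log2 fold change -1.06, limma adjusted p = 0.00343). The order of events cannot be read from 1 time point.

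**Figure D4:**
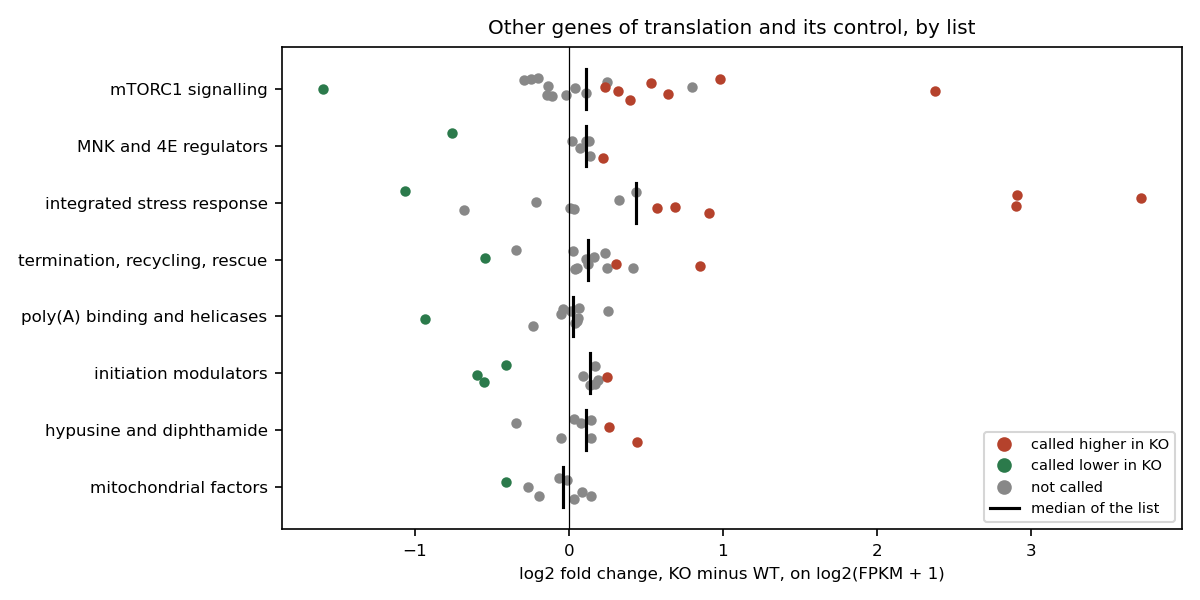
Log2 fold change, KO minus WT, of every tested gene of 8 lists of genes that act on or beside the translation factors, with called genes in colour. Points of the integrated stress response and mTORC1 lists reach furthest to the right, and those of the poly(A) binding and helicase list stay near 0 apart from *Mif4gd*. Black bars mark the median of each list.

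The other 6 lists had 1 to 4 called genes each, against 15.7% higher and 12.4% lower over all tested genes. Of 7 tested genes of the MNK kinases and other eIF4E regulators, 1 rose and 1 fell. The gene that fell, *Mknk2*, whose product phosphorylates eIF4E, had 54.5, 59.4 and 61.8 FPKM in KO libraries, against 109.3, 83.9 and 107.3 FPKM in WT libraries (1.71-fold lower; limma adjusted p = 0.00660). *Gigyf1*, which encodes a partner of the eIF4E2 repressor complex, rose 1.18-fold (0.0466).

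Of 13 tested genes of termination, recycling and rescue 2 rose (*Gtpbp2* and *Hbs1l*) and 1 fell, among them the ribosome rescue GTPase genes *Gtpbp2* (1.86-fold higher, limma adjusted p = 0.00199) and *Gtpbp1* (1.604-fold lower, 0.00627). Of 10 poly(A) binding and helicase genes 1 fell and 0 rose, and this was *Mif4gd*, with 11.6, 9.49 and 9.76 FPKM in KO libraries, against 18.6, 21.97 and 21.1 FPKM in WT libraries (limma adjusted p = 0.00181). Of 9 genes of other initiation modulators 3 fell, among them *Bzw2* (1.91-fold, limma adjusted p = 0.0346) and *Secisbp2* (1.47-fold, 0.0375). The calls of *Secisbp2*, *Hbs1l* and *Dph3* were lost without any 1 library (limma adjusted p up to 0.0985 for *Secisbp2*, 0.109 for *Hbs1l* and 0.143 for *Dph3*), that of *Gigyf1* without any 1 but WT replicate 2 (up to 0.143), and that of *Bzw2* without KO replicate 2 or 3 or WT replicate 2 or 3 (up to 0.110).

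Of 8 tested genes of hypusine and diphthamide synthesis 2 rose (*Dhps* and *Dph3*) and 0 fell. *Dhps*, the first enzyme of the hypusine modification of eIF5A, had 20.2, 20.04 and 20.6 FPKM in KO libraries, against 14.1, 14.1 and 15.8 FPKM in WT libraries (1.38-fold; limma adjusted p = 0.00589), beside *Eif5a* with a log2 fold change of -0.03. Of 8 tested mitochondrial translation factor genes 0 rose and 1 fell, the elongation factor gene *Tufm*, with 13.5, 12.3 and 11.9 FPKM in KO libraries, against 17.1, 16.4 and 17.3 FPKM in WT libraries (limma adjusted p = 0.00876).

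Across the alternative ways of processing, *Eif1ad*, *Eif2s2* and *Eif4ebp1* were called higher and *Eif3g* lower every time. The calls of *Eef1g* and *Eif2b4* were lost in 1 alternative each, and those of *Eef1akmt2* and *Eif4enif1* were lost in most alternatives. All 13 called genes kept their direction.

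**Figure D5:**
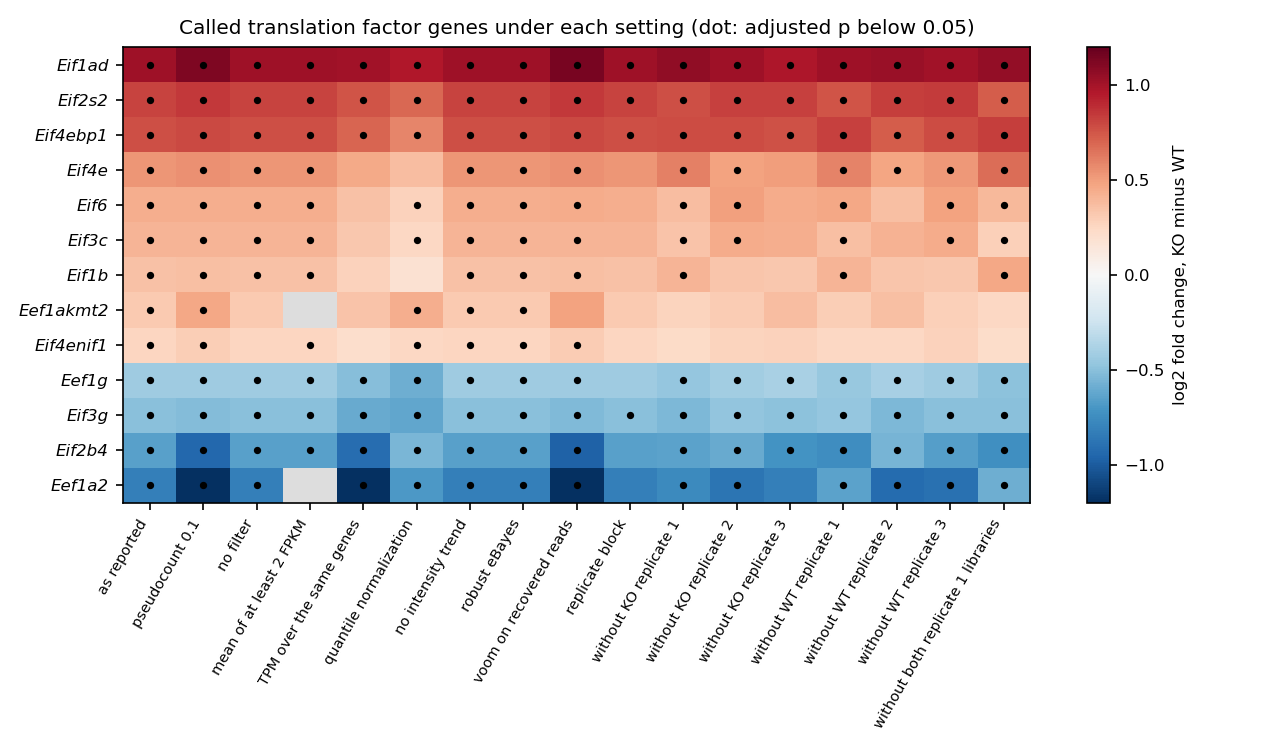
Heat map of the log2 fold change, KO minus WT, of the 13 called genes (rows) under each processing alternative (columns), with colours capped at the ends of the scale, a dot where the adjusted p was below 0.05 and grey where the gene was under the filter. The rows of *Eif1ad*, *Eif2s2*, *Eif4ebp1* and *Eif3g* hold a dot in every column, and no row changes colour from red to blue.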

How the data were processed

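RNA-seq of 3 KO and 3 WT libraries was analysed, grouped by the genotype in the sample titles. The authors deposited 1 table of FPKM per gene, with coordinates on GRCm38 (mm10) per the submitters' processing notes. Of the aligner, counter, annotation release and strand setting, none is given in the sources used here. FPKM multiplied by gene length gave whole reads for 100% of values within 0.05 of a step, and the FPKM sums differed between libraries.

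Tests used limma 3.58.1 in R 4.3.3 on log2(FPKM + 1) of genes averaging 0.5 FPKM or more over the 6 libraries, with genotype as the only term, eBayes with an intensity trend, and Benjamini-Hochberg adjustment over 11689 genes. The script was tested on simulated data. The genes, roles, lists and tests were chosen with earlier results of these data known. Genes are named where they were called with groups that do not overlap, were the most abundant of their role, or belong to 4E-binding, cap-binding, eIF2B, eIF2γ, eEF2 or paralogue pairs. From each list up to 3 called genes with the smallest p are named, not all of which are reported here; *Tsc1*, *Akt1s1*, *Rraga*, *Rragc*, *Lamtor1*, *Atf4* and the exceptions *Eif2s1* and *Eif2ak3* were named after their values were seen.

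Shared sequence was counted in 50-base words of GENCODE M21 transcripts, in which all 63 genes were found, 60 with the deposited start, end and length. Alternatives were TPM, a filter at 2 FPKM or none, a pseudocount of 0.1, quantile normalization, eBayes settings, voom on recovered reads, a replicate block and leaving out libraries. Floors take 3 reads and cover counting error only.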

Additional observations from a re-analysis of the deposited data

How the results depend on the processing

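*Eif1ad*, *Eif2s2* and *Eif4ebp1* were called higher and *Eif3g* lower in all 16 alternatives. The 9 translation factor genes called higher became 3 with TPM and 3 with the replicate block, and 3 to 9 without 1 library (3 without KO replicate 3, 4 without WT replicate 2). The 4 called lower became 10 with quantile normalization, 1 with the replicate block, 7 without both replicate 1 libraries (chosen after seeing the data), and 3 to 5 without 1 library. Over all tested genes, 1833 higher calls became 542 with TPM, 479 with the replicate block and 912 to 1681 without 1 library. The 1445 lower calls became 604 with the replicate block and 851 to 1337 without 1 library. With a mean of at least 2 FPKM they became 876, among 7702 genes tested in place of 11689. Higher calls were 55.9% of all calls, 31.8% with TPM. The labels state no pairing of the replicate numbers. Deviations from the group means correlated at -0.50, -0.19 and -0.16 between same-numbered libraries. With 3 libraries in a group and replicate 1 apart in both, these values cannot show whether the numbers are a pairing. The block ended all calls of these genes but the 4 named first (*Eef1g* at an adjusted p of 0.0698 and *Eif2b4* at 0.0597). Small log2 fold changes turned sign for *Eef1a1* (-0.047 with TPM, -0.30 with quantile normalization, -2.83e-05 without both replicate 1 libraries), *Eif4g1* (-0.042 with TPM, -0.12 with quantile normalization, -0.012 to 0.082 without 1 library), *Eif4g3* (-0.023 with TPM), *Eif2b1* and *Eif2b5* (0.028 and 0.13 without both replicate 1 libraries; *Eif2b5* -0.12 to 0.066 without 1 library), *Eif5a* (-0.072 to 0.019 without 1 library) and *Eif2s3x* (-0.080 to 0.046 without 1 library). The cause was not tested. Of the single-gene values, 688 kept direction and side of the threshold, 105 fell short of it, 3 newly passed and 15 turned sign. Low read counts limit *Eef1a2*, *Eif4ebp3*, *Eef1akmt3* and *Eef2k*.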
